A study of Xenopus laevis with 59 samples.

Results

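The germ plasm RNAs *dnd1*, *rbpms2* and *velo1* were followed along the animal-vegetal axis of *Xenopus laevis* oocytes in 4 size classes. The members were all transcripts of the count table whose symbol is *dnd1*, *rbpms2* or *velo1* with the ending .L or .S, which gave 5 of 32291 transcripts: *dnd1.L*, *rbpms2.L*, *rbpms2.S*, *velo1.L* and *velo1.S*. *X. laevis* is an allotetraploid frog, and .L and .S name the homeologs, the copies of a gene carried on its long and short subgenomes. The first 4 members were counted in all 59 libraries and passed the filter on low totals (mean scaled total over 20 per oocyte). *velo1.S* had 10 counts in all, in 8 of the 59 libraries, did not pass the filter and was not tested.

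Germ plasm is cytoplasm that frog and fish germ cells inherit, vegetal in the frog, and its RNAs and proteins protect and specify the germ line. In young frog oocytes it gathers in the Balbiani body, an aggregate of mitochondria, endoplasmic reticulum and RNA from which the early pathway carries RNAs such as *nanos1* to the vegetal cortex, whereas late pathway RNAs such as *vegt* are carried there afterwards on microtubules. *velo1* encodes the frog counterpart of zebrafish Bucky ball, a protein with a prion-like domain that forms the matrix of the Balbiani body. *rbpms2* encodes Hermes, a protein with an RNA recognition motif that lies in germ plasm, and vertebrate *rbpms2* is also active in smooth muscle. *dnd1* encodes Dead end, an RNA-binding protein that germ cells need and that, in zebrafish, shields germ line mRNAs from microRNAs.

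Untreated ovarian oocytes were sliced from the animal to the vegetal pole, and the slices of each oocyte were pooled in 5 sections, A (animal) to E (vegetal). The oocytes were very small (stage III; 560 or 580 µm across; 3 oocytes), small (stage IV; 720 to 810 µm; 5 oocytes), medium (early stage V; 1050 µm; 2 oocytes) and big (late stage V; 1140 and 1200 µm; 2 oocytes). All very small oocytes came from female 2 and the other 9 oocytes from female 1, so stage III and the second female cannot be told apart. Replicates were oocytes of the same female, so the p-values do not measure the spread between animals. The gradient and profile tests had no term for the oocyte and treated its sections as independent libraries. Their SEs and p-values are therefore those of the fit and not of the gradients of single oocytes. Section A of very small oocyte 1 was not analysed here, so shares over 5 sections rest on the other 2 very small oocytes. Libraries held between 1014060 and 7356435 counts (median 3617724). The germ line markers *nanos1*, *dazl*, *pgat* and *ddx25* summed to at least 871 CPM in E of each oocyte. In A their sum was 80.8 and 118 CPM in the 2 very small oocytes with that section, against 13.1 to 46.6 CPM in the larger oocytes. The markers thus set A apart less sharply in the very small oocytes.

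Levels are in CPM, counts relative to the library size after scaling by the trimmed mean of M values (TMM). Each library was made from an equal amount of RNA, so a level is relative to the RNA of its section, and a share gives every section the same weight whatever its volume. The vegetal gradient is the log2 level in E minus the mean log2 level in A, B and C. Medium and big oocytes were fitted together for the gradient. Transcript lengths were not used, and levels are not compared between genes. Adjusted p-values are Benjamini-Hochberg values over all transcripts tested with the quasi-likelihood test of edgeR, and a call is an adjusted p under 0.1.

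*velo1.L*, the Balbiani body matrix gene, was vegetal in all 4 size classes, and its gradient was steeper in each of the 2 later gradient groups than in the one before. In section E it had 691, 669 and 650.1 CPM in the very small oocytes, 819, 1134, 1004, 1208 and 1008 CPM in the small ones, 1602 and 1182 CPM in the medium ones and 1579 and 1301 CPM in the big ones. Its mean over A, B and C was 314, 294 and 287 CPM in the very small oocytes, between 163 and 247 CPM in the small ones, 127 and 113 CPM in the medium ones and 104 and 109 CPM in the big ones. E was above every other section in all 12 oocytes, and no small, medium or big oocyte overlapped the very small ones in either measure. The share of *velo1.L* in E was 34.2% ± 1.88 in very small oocytes (SD, n = 2), 50.7% ± 3.86 in small ones (n = 5), 60.2% ± 1.79 in medium ones (n = 2) and 62.2% ± 8.43 in big ones (n = 2), where an even spread would give 20%. D and E together held 54.8% ± 2.56, 69.9% ± 3.00, 84.3% ± 1.58 and 86.2% ± 0.535 in the same order of size classes. With counts not scaled for depth, which weight sections by library size, the E share was 43.1% in medium oocytes against 57.9% in small ones, so the order of these classes by share depends on the scaling.

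The gradient of *velo1.L* was 1.17 in very small oocytes (SE 0.15; edgeR adjusted p = 4.9e-08), 2.34 in small oocytes (SE 0.11; adjusted p = 1.2e-24) and 3.66 in medium with big oocytes (SE 0.12; adjusted p = 4.7e-30). It was the only member called positive in all 3 groups. Over all transcripts tested, 1.41% were called positive in very small oocytes, 4.36% in small oocytes and 9.99% in medium with big oocytes. By p, *velo1.L* stood at rank 2 of 19941 transcripts in medium with big oocytes and at rank 94 in very small ones. The gradient was higher by 1.17 in small than in very small oocytes (SE 0.20; edgeR adjusted p = 2.9e-04), a positive change called for 0.842% of transcripts, and those 2 groups differ in female. The germ line markers named above also had higher gradients in small oocytes (6.18 to 8.45) than in very small ones (4.71 to 5.42). No test of that step is given for them. The gradient of *velo1.L* was higher by 1.33 in medium with big than in small oocytes of the same female (SE 0.18; edgeR adjusted p = 1.2e-07), a positive change called for 3.63% of transcripts.

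**Figure D1:**
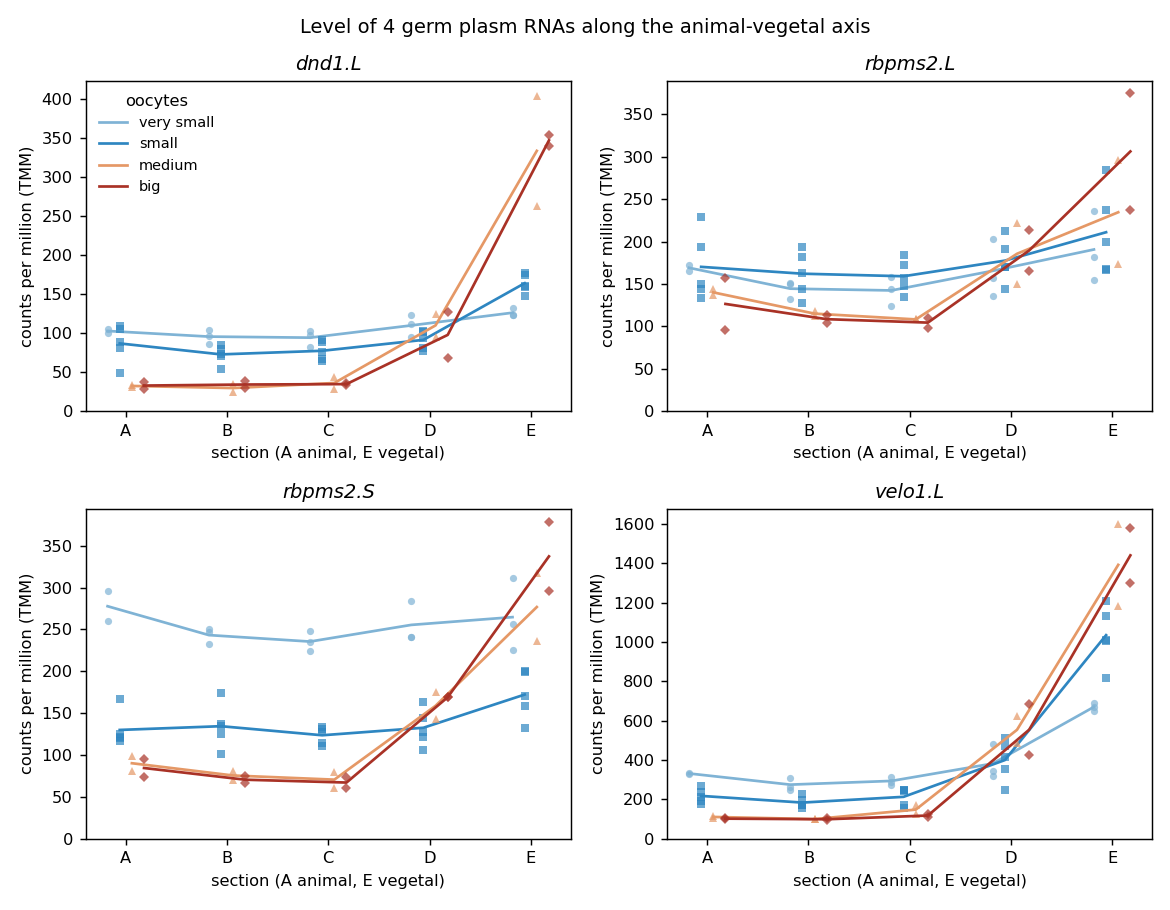
Level of the 4 tested members (TMM-scaled CPM, linear axis from 0) in sections A (animal) to E (vegetal). Points are single libraries and lines join the means of each size class. *velo1.L* and *dnd1.L* in medium and big oocytes climbed steeply from C to E, whereas the lines of *rbpms2.L* lay closest together.

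*dnd1.L*, the Dead end gene, was nearly even along the axis in very small oocytes and strongly vegetal in medium and big ones. Section E held 132, 123 and 124 CPM in very small oocytes, 159.9, 177, 175, 160.4 and 148 CPM in small ones, 405 and 263 CPM in medium ones and 341 and 354 CPM in big ones. No 2 of the groups very small, small, and medium with big overlapped in E. Sections A, B and C held between 24.5 and 44.0 CPM in medium and big oocytes, against 49.1 to 109.5 CPM in small oocytes, so these libraries did not overlap either. The mean level in D, which got no test of its own, was 109.9 ± 14.3 CPM in very small oocytes (SD, n = 3), 91.4 ± 11.7 CPM in small ones (n = 5), 110.0 ± 21.2 CPM in medium ones (n = 2) and 97.8 ± 41.6 CPM in big ones (n = 2). Thus E was higher and A to C were lower in the larger oocytes, while the means of D spanned 91.4 to 110.0 CPM.

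The share of *dnd1.L* in E was 23.5% ± 1.15 in very small oocytes (SD, n = 2), 33.5% ± 3.73 in small ones (n = 5), 61.3% ± 2.79 in medium ones (n = 2) and 63.8% ± 5.35 in big ones (n = 2). Its gradient was 0.38 in very small oocytes (SE 0.16; edgeR adjusted p = 0.647), 1.06 in small oocytes (SE 0.11; adjusted p = 1.2e-10) and 3.35 in medium with big oocytes (SE 0.13; adjusted p = 9.6e-28). The sections of very small oocytes still differed when all 5 were tested together with the oocyte as a block (edgeR adjusted p = 0.00292) and E lay above B and C in all 3 of them. The gradient was higher by 2.30 in medium with big than in small oocytes (SE 0.18; edgeR adjusted p = 1.5e-13), which placed *dnd1.L* at rank 6 of 19941 transcripts for this change. Between small and very small oocytes the gradient differed by 0.68 (SE 0.20), which was not called (edgeR adjusted p = 0.140) but was with the oocyte as a replicate block (difference 0.70; adjusted p = 0.0177). Leaving out small oocyte 5 or medium oocyte 1 also made it a call, with differences of 0.75 and 0.68.

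Among the 5 small oocytes the *dnd1.L* gradient was higher in the 3 of 810 µm than in those of 750 and 720 µm. The 3 oocytes of 810 µm had gradients of 1.38, 1.21 and 1.19 and E shares of 37.9%, 36.3% and 34.0%. The oocytes of 750 and 720 µm had gradients of 0.79 and 0.81 and E shares of 29.6% and 29.9%. These are 5 oocytes of 1 female, and no test was run on them. The *velo1.L* gradient did not separate the same oocytes, with 2.32, 2.67 and 2.27 in the 810 µm oocytes against 2.42 and 2.03 in the 750 and 720 µm oocytes. Nor did that of *rbpms2.L* (-0.038, 0.95 and 0.21 against 0.68 and -0.047) or of *rbpms2.S* (0.33, 0.79 and 0.35 against 0.70 and -0.14).

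**Figure D2:**
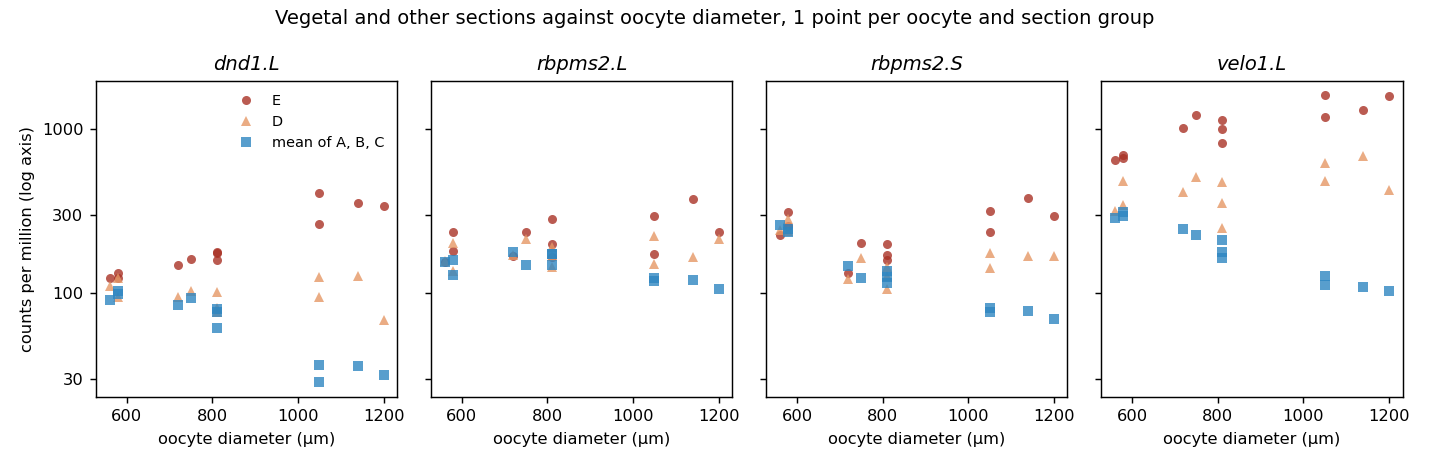
Level (CPM, log axis) in section E, in section D and as the mean of A, B and C against oocyte diameter in µm, with 1 point per oocyte in each of the 3 section groups. For *dnd1.L*, *rbpms2.S* and *velo1.L* the E points and the A to C points moved apart with diameter, and D stayed between them in the 4 largest oocytes.

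*rbpms2.S*, the short-subgenome copy of the Hermes gene, was even along the axis in very small oocytes and vegetal in medium and big ones. In E it had 257, 311 and 226 CPM in very small oocytes, 159, 199, 171, 200.8 and 132 CPM in small ones, 236 and 317 CPM in medium ones and 296 and 378 CPM in big ones. Its mean over A, B and C was 235, 247 and 260.4 CPM in very small oocytes, between 115 and 146 CPM in small ones, 81.0 and 76.7 CPM in medium ones and 69.8 and 78.3 CPM in big ones. The A to C means of the 3 groups very small, small, and medium with big did not overlap, whereas E of the medium and big oocytes overlapped E of the very small ones. The share in E was 20.7% ± 3.70 in very small oocytes (SD, n = 2), 24.9% ± 3.99 in small ones (n = 5), 41.1% ± 6.96 in medium ones (n = 2) and 46.1% ± 3.15 in big ones (n = 2).

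The *rbpms2.S* gradient was 0.073 in very small oocytes (SE 0.12; edgeR adjusted p = 0.999), 0.40 in small oocytes (SE 0.094; adjusted p = 0.00243) and 2.04 in medium with big oocytes (SE 0.10; adjusted p = 2.5e-23). It was higher by 1.63 in medium with big than in small oocytes (SE 0.15; edgeR adjusted p = 2.1e-12), which is rank 19 of 19941 for this change. The difference of 0.33 between small and very small oocytes was not called (SE 0.16; edgeR adjusted p = 0.832). Taken per oocyte, the small gradients averaged 0.41 ± 0.37 (SD, n = 5). Small oocyte 5 went against the others of its class, with a gradient of -0.14 against 0.33 to 0.79 in the other 4. With all 5 sections tested together, small oocytes gave an adjusted p of 0.0826 in edgeR, which became 0.205, 0.334 and 0.485 without small oocyte 1, 2 or 4, so the small size class rests on single oocytes for this test.

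*rbpms2.L*, the long-subgenome copy, had the shallowest vegetal gradient of the 4 members in medium with big oocytes. In E it had 181, 236 and 155 CPM in very small oocytes, 167, 284, 199.6, 237 and 168 CPM in small ones, 173 and 296 CPM in medium ones and 237 and 375 CPM in big ones. All pairs of size classes overlapped except very small and big, whose nearest oocytes had 235.5 and 237.2 CPM. Its mean over A, B and C was 106 and 119.7 CPM in big oocytes and 123 and 119 CPM in medium oocytes, against 147 to 177 CPM in small ones, and here the larger oocytes lay below. Medium oocyte 1 had more *rbpms2.L* in D (222 CPM) than in E (173 CPM), and its E library was the shallowest of all with 1014060 counts. The share in E was 22.8% ± 4.20 in very small oocytes (SD, n = 2), 23.9% ± 4.90 in small ones (n = 5), 29.8% ± 10.1 in medium ones (n = 2) and 36.3% ± 7.73 in big ones (n = 2).

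The *rbpms2.L* gradient was 0.32 in very small oocytes (SE 0.17; edgeR adjusted p = 0.841), 0.36 in small oocytes (SE 0.12; adjusted p = 0.0832) and 1.24 in medium with big oocytes (SE 0.14; adjusted p = 1.0e-10). Taken per oocyte, the small gradients averaged 0.35 ± 0.45 (SD, n = 5). The small oocytes ran from -0.047 in oocyte 5 to 0.95 in oocyte 2, and their call was lost without small oocyte 2 (gradient 0.22), without small oocyte 4 (0.28) and without very small oocyte 3 (0.36), which shares the estimate of the spread. The gradient was higher by 0.89 in medium with big than in small oocytes (SE 0.19; edgeR adjusted p = 8.4e-04), and without medium oocyte 2 this change was 0.63 with an adjusted p of 0.115. Its profile across all 4 size classes gave an adjusted p of 0.0885 in edgeR and 0.101 with the replicate block, and leaving out big oocyte 2, small oocyte 1, 3 or 5, or very small oocyte 1 or 3 also ended that call (adjusted p between 0.124 and 0.482). Thus the steeper gradient of *rbpms2.L* in larger oocytes rested on fewer oocytes than that of the other 3.

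**Figure D3:**
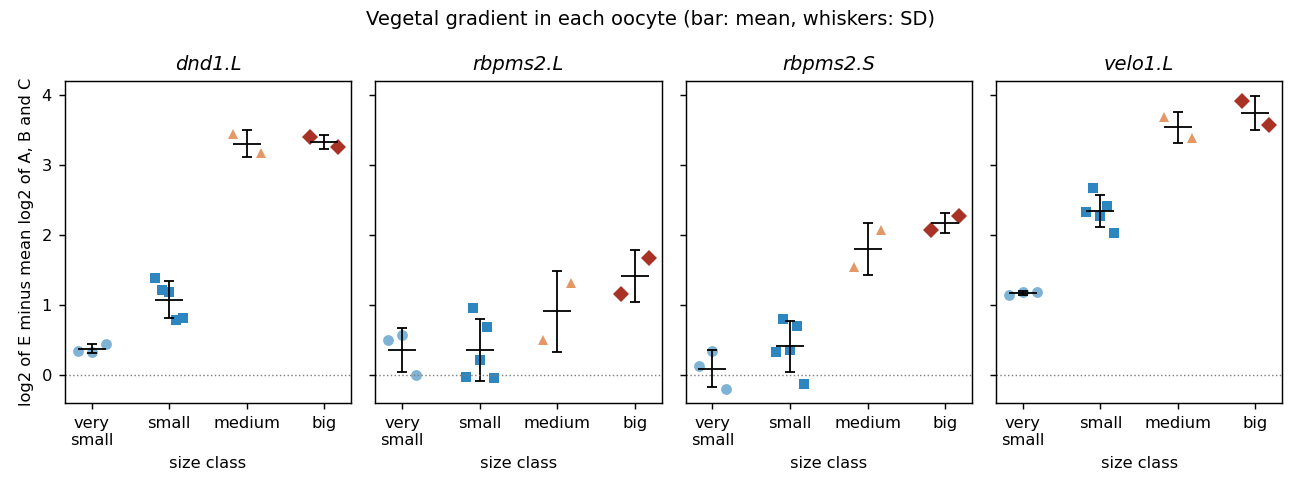
Vegetal gradient (log2 level in E minus the mean log2 level in A, B and C) of the 4 tested members, with 1 point per oocyte, by size class. Bars are means and whiskers SDs of the 3, 5, 2 and 2 oocytes, and the dotted line marks no gradient. All 4 medium and big oocytes lay above all smaller ones for *dnd1.L*, *rbpms2.S* and *velo1.L* but not for *rbpms2.L*.

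Counted over members, the sections differed in very small oocytes for 3 of the 4 (5.85% of all transcripts tested there), in small oocytes for 3 of the 4 (8.59%), in medium oocytes for all 4 (8.26%) and in big oocytes for all 4 (9.58%). The member without a call was *rbpms2.S* in very small oocytes (edgeR adjusted p = 0.376) and *rbpms2.L* in small ones (adjusted p = 0.407). With no filter on low counts both became calls (adjusted p = 0.0888 and 4.4e-04), and without the block *rbpms2.L* in very small (adjusted p = 0.351) and *rbpms2.S* in small oocytes (0.105) lost theirs, so the counts in these size classes depend on the fit. The shape over the 5 sections differed between the 4 size classes for all 4 members, against 4.39% of transcripts, and within female 1 between small and medium with big oocytes for all 4, against 5.11% of transcripts. Within female 1 the adjusted p was 9.7e-13 for *dnd1.L*, 9.8e-12 for *rbpms2.S*, 2.2e-08 for *velo1.L* and 0.00718 for *rbpms2.L*, the last rising to 0.145 without medium oocyte 2. Against very small oocytes, the gradient in medium with big oocytes was higher by 2.98 for *dnd1.L*, 2.497 for *velo1.L*, 1.96 for *rbpms2.S* and 0.92 for *rbpms2.L*, all called, and a positive change was called for 5.22% of transcripts. The call for *rbpms2.L* was lost without medium oocyte 2 (0.65) or very small oocyte 3 (0.77).

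No member was called for a change of gradient between big and medium oocytes. The differences were 0.017 for *dnd1.L* (SE 0.28), 0.45 for *rbpms2.L* (SE 0.29), 0.35 for *rbpms2.S* (SE 0.22) and 0.20 for *velo1.L* (SE 0.27), each with an edgeR adjusted p of 1.0 and each with 2 oocytes a group. Of all transcripts tested, 0% were called positive for this change by edgeR or DESeq2. An unadjusted p under 0.05 in edgeR was found for 438 of 19941, fewer than that threshold would give with no change at all. The SEs are not limits of detection, and changes larger than them can be missed with 2 oocytes a group.

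Compared within the oocyte and averaged over all 12 oocytes, the gradients of the members fell in the order *velo1.L*, *dnd1.L*, *rbpms2.S*, *rbpms2.L*, the last 2 of which did not differ beyond their spread, and the differences varied between size classes. The gradient of *dnd1.L* minus that of *velo1.L* averaged -0.83 ± 0.46 (SD, n = 12) and was negative in all 12 oocytes (exact two-sided sign-flip permutation test, p = 4.9e-04, the smallest it can give; adjusted over 6 pairs 9.8e-04). It averaged -1.27 ± 0.28 in small oocytes (n = 5) and -0.32 ± 0.14 in medium with big oocytes (n = 4). The gradient of *rbpms2.S* minus that of *velo1.L* averaged -1.63 ± 0.44 and that of *rbpms2.L* minus that of *velo1.L* -1.86 ± 0.77, both negative in 12 of 12 oocytes with the same exact p. *dnd1.L* was above *rbpms2.S* by 0.79 ± 0.56 in 11 of 12 oocytes (exact permutation p = 9.8e-04, adjusted 0.00146) and above *rbpms2.L* by 1.02 ± 1.01 in 10 of 12 (exact permutation p = 0.00439, adjusted 0.00527). *dnd1.L* minus *rbpms2.L* was 0.016 ± 0.38 in very small oocytes (n = 3), where they did not differ beyond their spread, 0.72 ± 0.54 in small ones (n = 5) and 2.16 ± 0.59 in medium with big ones (n = 4). *dnd1.L* minus *rbpms2.S* was 0.28 ± 0.33, 0.67 ± 0.40 and 1.33 ± 0.41 in the same groups.

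The *rbpms2* homeologs parted in position in the medium and big oocytes. The gradient of *rbpms2.S* minus that of *rbpms2.L* was -0.37, -0.24 and -0.20 in the very small oocytes, 0.37, -0.16, 0.14, 0.017 and -0.089 in the small ones, 1.04 and 0.75 in the medium ones and 0.92 and 0.60 in the big ones. All 4 medium and big oocytes lay above all 8 others. Over the 12 oocytes the difference averaged 0.23 ± 0.49 (SD) and was not distinguished from 0 (exact two-sided sign-flip permutation test, p = 0.129, adjusted 0.129 over the 6 pairs). Over the 9 oocytes of female 1 it averaged 0.40 ± 0.45 and was positive in 7 of 9 (exact permutation p = 0.0430), which leaving out small oocyte 1 or 3 or any of the 4 medium and big oocytes takes past 0.05 (averages 0.32 to 0.43). It was higher by 0.77 in medium with big than in small oocytes, at a mean of 0.83 ± 0.19 (n = 4) against 0.055 ± 0.21 (n = 5), which had an exact permutation p of 0.00794, the smallest that 126 arrangements give. Between the larger oocytes and the very small ones it was higher by 0.66 (exact permutation p = 0.0273 over 220 arrangements), a comparison that leaving out any 1 very small oocyte takes past 0.05.

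The same split can be read in the mixture of reads. Of the counts of both homeologs in E, *rbpms2.S* made up 58.3% ± 1.22 in very small oocytes (SD, n = 3), 45.2% ± 2.78 in small ones (n = 5), 54.7% ± 4.24 in medium ones (n = 2) and 52.9% ± 3.78 in big ones (n = 2). In A, B and C it made up 62.8% ± 1.90, 44.8% ± 1.32, 39.0% ± 0.873 and 40.2% ± 0.651 in the same order of size classes. E minus A to C was 18.1 and 13.3 percentage points in the medium oocytes and 14.9 and 10.5 in the big ones, against values from -2.78 to 5.86 in the small ones. The homeologs are similar in sequence, and how reads that match both were treated is not given in the sources used here, so the level of each copy is less certain than their sum.

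**Figure D4:**
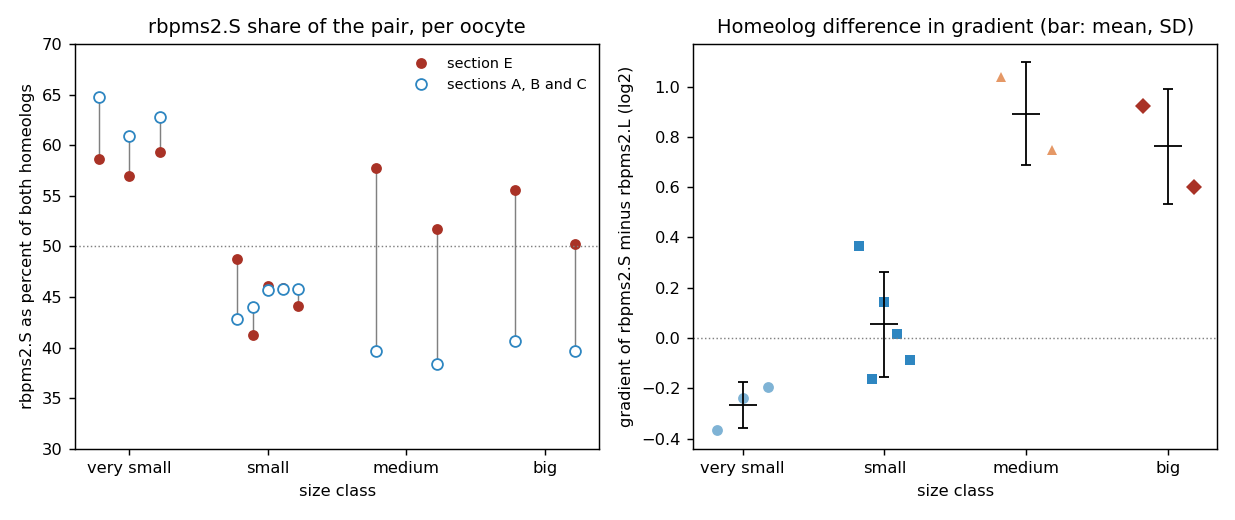
Left, *rbpms2.S* as a percentage of the counts of both *rbpms2* homeologs, in section E and in sections A, B and C of the same oocyte, joined by a line (axis from 30 to 70%). Right, gradient of *rbpms2.S* minus that of *rbpms2.L* (log2), with 1 point per oocyte, means and SDs. In all 4 medium and big oocytes E lay 10.5 to 18.1 percentage points above A to C.

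Totals per oocyte separated the homeologs in another way. *rbpms2.S* averaged 253 ± 12.9 CPM over the sections of very small oocytes (SD, n = 3), 139 ± 7.47 CPM in small ones (n = 5), 134 ± 4.95 CPM in medium ones (n = 2) and 146 ± 15.2 CPM in big ones (n = 2). The highest of the 9 larger oocytes, at 156 CPM, lay below the lowest very small oocyte, at 242 CPM. With counts summed over sections, *rbpms2.S* fell by 0.84 on the log2 scale in small against very small oocytes (SE 0.073; edgeR adjusted p = 7.8e-07), at rank 490 of 19941 transcripts, in a comparison across females in which 44.4% of all transcripts were called. *rbpms2.L* averaged 176 ± 5.29 CPM in small and 160.7 ± 19.9 CPM in very small oocytes, and its summed counts rose by 0.15 (SE 0.056; edgeR adjusted p = 0.0490), a call lost without small oocyte 4 (0.13) or very small oocyte 1 (0.090). *rbpms2.S* made up 61.6% ± 1.35 of the pair's counts in very small oocytes (range 60.2 to 62.9%), 44.5% ± 1.51 in small ones (42.3 to 46.4%), 45.0% ± 2.90 in medium ones and 45.7% ± 0.309 in big ones. These shares give the ratio of the 2 count totals, without transcript lengths, and do not tell which copy is more abundant. The ratio differed between the 9 larger oocytes and the very small ones, where stage and female cannot be told apart.

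The totals of *dnd1.L* and *velo1.L* were not called different between size classes. In small against very small oocytes the summed counts differed by -0.049 for *dnd1.L* (SE 0.091; edgeR adjusted p = 0.711) and by 0.23 for *velo1.L* (SE 0.13; adjusted p = 0.204), and that of *velo1.L* became a call at 0.31 without small oocyte 1 and at 0.34 with sections B to E alone. In medium with big against small oocytes, in which 15.6% of transcripts were called, the differences were -0.19 for *dnd1.L* (SE 0.084; edgeR adjusted p = 0.173), -0.21 for *velo1.L* (SE 0.12; adjusted p = 0.311), -0.10 for *rbpms2.S* (SE 0.069; adjusted p = 0.373) and -0.16 for *rbpms2.L* (SE 0.051; adjusted p = 0.0739). For *dnd1.L* the difference became a call without big oocyte 2 (-0.28) or small oocyte 1 (-0.24), and for *rbpms2.L* the call was lost without any 1 of 7 oocytes, namely big 1 or 2, medium 1 or 2, or small 2, 3 or 4 (-0.19 to -0.13). With sections given equal weight, the differences turned to 0.13 for *dnd1.L*, 0.18 for *velo1.L* and 0.014 for *rbpms2.S*, none of them called. Between big and medium oocytes no member was called, nor was any transcript (0% in edgeR, with 741 at an unadjusted p under 0.05, and 7 transcripts by DESeq2). All totals are relative to the total count of the oocyte, and an oocyte that grows can hold more copies of an RNA at the same relative level.

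**Figure D5:**
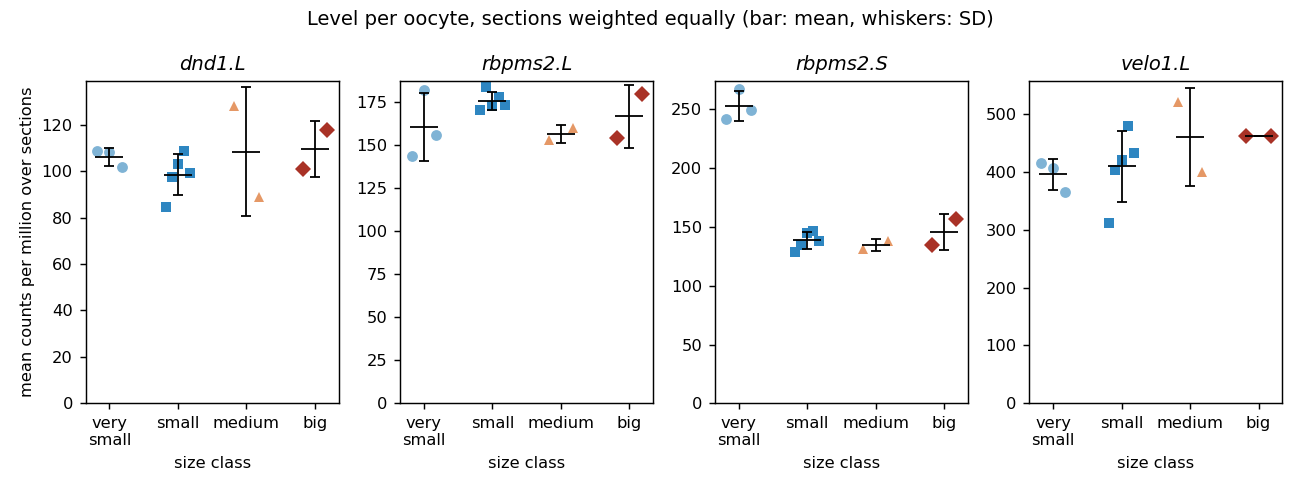
Mean level over the sections of each oocyte (TMM-scaled CPM, sections weighted equally, axes from 0), with 1 point per oocyte, by size class. Bars are means and whiskers SDs. *rbpms2.S* lay between 129 and 156 CPM in the 9 larger oocytes and between 242 and 267 CPM in very small ones. For each other member the range of the 9 larger oocytes overlapped that of the very small ones. Some single classes still lay apart. *velo1.L* had 365.8 to 416.2 CPM in very small oocytes and 462.5 and 462.9 CPM in big ones. *rbpms2.L* had 170.6 to 184.0 CPM in small oocytes and 152.9 and 160.4 CPM in medium ones.

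*velo1* was counted from its .L copy almost alone. *velo1.S* had 10 counts against 98758 of *velo1.L*, a share of 0.0101% (95% Clopper-Pearson interval 0.00486 to 0.0186%, which covers counting error only), with at most 3 counts in 1 library. Of the 10 counts none stood in a library of the medium oocytes. They lay in sections C, D and E, mostly in E, and none lay in A or B. A gradient of *velo1.S* was not tested.

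The members were set beside lists of other localized RNAs and of germ plasm proteins. The study also cites an intermediate pathway, a mix of the early and late ones, and names *dnd1* and *rbpms2* among its RNAs. As members, these were left out of the intermediate pathway list here. Over all transcripts tested, 9.99% were called vegetal in medium with big oocytes. A positive change of gradient from small oocytes was called for 3.63%. Of the early pathway list, all 4 transcripts were called vegetal in medium with big oocytes with a median gradient of 6.81, against -0.015 over all transcripts, with the smallest adjusted p for *pgat.L* (6.59), *ddx25.L* (7.02), an RNA helicase gene, and *nanos1.L* (8.05), a translational repressor gene of germ cells. None of the 4 was called for a change of gradient between medium with big and small oocytes (median change 0.13). Their changes had SEs from 0.43 to 1.27, against 0.18 for *dnd1.L*, so some changes as large as those of the members could be missed. Of the intermediate pathway list, 6 of 8 were called vegetal (median 4.05), with the smallest adjusted p for *trim36.L* (6.44), a ubiquitin ligase gene, *grip2.S* (7.41), a scaffold gene, and *trim36.S* (5.38) and the steepest gradient for *grip2.L* (8.44), and 2 of 8 changed, *plin2.S* by 0.63 and *plin2.L*, a lipid droplet gene, by 0.89. Of the late pathway list both transcripts measured, *vegt.L* (3.40) and *vegt.S* (3.00) of the maternal T-box factor gene, were called, and their gradients were higher by 1.62 and 1.16 in medium with big than in small oocytes. The *vegt* transcripts are copies of 1 gene. In the same oocytes *dnd1.L* had a gradient of 3.35 and a change of 2.30, and *velo1.L* a gradient of 3.66 and a change of 1.33. No test was made between members and lists.

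Of the genes of germ granules and piRNA work, 13 of 17 tested were not called in medium with big oocytes. In the same oocytes 3724 of all 19941 transcripts were called in either direction. The 1 called vegetal was *asz1.L* (0.65), a mitochondria-bound piRNA factor gene, against 9.99% of all transcripts. The 3 called animal, against 8.68% of all transcripts, included *tdrkh.L* (-0.92) and *tdrd1.L* (-0.57), both Tudor domain genes. A change from small oocytes was called for *asz1.L* (0.64), *tdrkh.L* (-0.78) and *tdrd1.L* (-0.58). It was not called for the third animal transcript (-0.30; edgeR adjusted p = 0.461). The gradient by which these were picked enters the change, so its direction was favoured by the choice. Of all transcripts, 3.63% were called for a positive change and 2.38% for a negative one. Of 27 transcripts of RNA transport and storage proteins, 4 were called vegetal and 3 animal, against 9.99% and 8.68% of all transcripts. The smallest adjusted p belonged to *ddx6.L* (1.85), an RNA helicase gene, *lsm14b.L* (1.32), its partner in maternal mRNA storage, and *khdrbs1.L* (1.12), an RNA-binding protein gene. The vegetal 4 each had a steeper gradient in medium with big than in small oocytes, by 0.80 for *ddx6.L*, 0.91 for *lsm14b.L*, 0.56 for *khdrbs1.L* and 0.50 for *elavl2.S*. A positive change was called for 3.63% of all transcripts, a share not limited to those called vegetal. The 4 were picked by their gradient in medium with big oocytes, which enters the change, so a positive change was favoured by the choice.

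By likeness of level over the 20 means of size class and section, the transcripts most like *dnd1.L* among 15696 were *arl4a.S* (Pearson r 0.994), *rdh10.S* (0.991), *chek1.S* (0.989), *mier1.S* (0.987) and *ralgds.L* (0.986). Those most like *velo1.L* were *papola.L* (0.995), *rgs3.S* (0.995), *acsbg2.L* (0.995), *adipor2.S* (0.994) and the unnamed transcript Xelaev18017221m (0.994). Near to *rbpms2.L* were *zfp36l2.S* (0.967), Xelaev18025241m (0.958), *yif1b.L* (0.948) and *sept7.L* (0.947), and the nearest to *rbpms2.S* were *loc100496891.L* (0.979), Xelaev18030348m (0.966), *pik3r2-like.L* (0.961), Xelaev18030405m (0.953) and *chic2.L* (0.951). Among the members themselves r was 0.959 between *dnd1.L* and *velo1.L*, 0.929 between *dnd1.L* and *rbpms2.L*, 0.886 between *dnd1.L* and *rbpms2.S* and 0.796 between the homeologs, the lowest of the 6 pairs. These r values describe 20 means that share libraries and size classes and carry no test.

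Sums of markers of cells that adhere to an oocyte differed between sections, and in big oocytes the stroma, granulosa and blood sums were high at both ends, A and E. In medium with big oocytes 9.99% of all transcripts were called vegetal and 8.68% animal. The stroma and theca list summed to 429 and 557 CPM in E of big oocytes and to 1073 and 585 CPM in E of medium oocytes, against 13.9 to 365 CPM in small ones, and in A to 433 and 457 CPM in big and 159.7 to 449.8 CPM in medium oocytes. Of its 16 transcripts tested, 7 were called vegetal in medium with big oocytes, those with the smallest adjusted p being the proteoglycan gene *lum* (*lum.S* 2.01, *lum.L* 1.65) and the collagen gene *col1a2.S* (1.43), and 1 was called animal. Medium oocyte 1, with the highest sum in E, had the highest *dnd1.L* and *velo1.L* levels in E and the lowest *rbpms2.L* and *rbpms2.S* levels of the 4. Its E library, the shallowest of all, also had the highest sum of the germ line markers, 4435 CPM against 1822 to 2589 CPM. The smooth muscle list, which bears on *rbpms2*, summed to 382 to 464 CPM in E of medium with big oocytes, against 478 to 514 CPM in small ones, and to 693 to 963 CPM in A of medium with big oocytes. Most of this sum was *smtn.L* (at most 421 CPM in a library) and *smtn.S* (at most 441 CPM). Of its 12 transcripts tested 6 were called vegetal, all of low level (*acta2.S* at most 20.7 CPM, *myh11.L* at most 24.0 CPM), and 2 animal, *smtn.S* (-1.26) and *smtn.L* (-0.33). *mylk.L* and *synpo2.L*, also listed, had 4 counts each in all libraries and were too low to be tested. The granulosa list summed to 48.4 to 107 CPM and the blood list to 42.9 to 76.5 CPM in E of medium with big oocytes, against 75.4 to 87.2 CPM and 69.1 to 89.3 CPM in A of big oocytes and 43.7 to 76.2 CPM and 9.32 to 22.4 CPM in A of medium ones, with 2 of 10 granulosa and 3 of 3 blood transcripts called vegetal. The smallest adjusted p in the granulosa list belonged to the steroid enzyme gene *hsd3b1* (*hsd3b1.L* 1.42), the inhibin gene *inha.L* (1.22) and *hsd3b1.S* (0.85, not called), and the blood transcripts were the hemoglobin genes *hba1.L* (1.59), *hbg1.L* (1.30) and *hba1.S* (1.64). The part of adhering cells in the members' values was not tested.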

How the data were processed

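Per the study's methods and the labels, the authors sliced oocytes at 30 µm, pooled slices into 5 sections, made rRNA-depleted libraries from 50 ng of RNA, trimmed reads with Trimmomatic, aligned them to *X. laevis* genome v9.1 with STAR 2.5.2b and counted reads per transcript with htseq-count. The deposited counts, unscaled whole numbers, were the only values used here. The 7 deposited tables of scaled counts and totals were not used.

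Counts (1014060 to 7356435 per library) were scaled by TMM and tested in edgeR 4.0.16 (R 4.3.3) after keeping transcripts with a mean scaled total over 20 counts per oocyte. Sections were tested within each size class with the oocyte as a block. Gradients and profiles were tested over all 59 libraries by groups of size class and section, with no term for the oocyte and with medium and big averaged. Totals were tested on counts summed over the sections of 12 oocytes. Members and homeologs were compared on log2(CPM + 1) by exact permutation tests in scipy 1.17.1. Sections of the same oocyte share a replicate number, and their deviations from the group means had a median correlation of 0.226 over 116 pairs, against -0.103 over 292 pairs of different oocytes, so the numbers pair the libraries by oocyte. Replicate libraries differed by more than sampling noise and none was merged.

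The named transcripts were the members, for each member the 5 transcripts with the highest correlation over 20 group means of log2 CPM (prior count 2) among transcripts whose totals averaged 100 counts or more, and for each list of localized, germ plasm or adhering cell transcripts the 3 with the smallest adjusted p for the gradient in medium with big oocytes. *myh11.L*, *mylk.L*, *synpo2.L*, *grip2.L*, *plin2.S*, *plin2.L* and *elavl2.S* fall outside this rule and were named after their values were seen, and 1 transcript that the rule names is not reported here. The members, lists and tests were chosen with earlier results of these data known. All 4 tested members, but not *velo1.S*, matched RefSeq symbols of Xenopus_laevis_v10.1, whose coordinates were not used because the files are on v9.1. Alternatives were size factors by the median of ratios, no filter, DESeq2 1.42.0, limma 3.58.1 on equally weighted sections, the replicate block, other reference sections, thinning to one depth, other pseudocounts and leaving out each oocyte. Each fit was first run on simulated counts in which chosen transcripts had been altered. The simulated libraries were independent, with no effect of the oocyte. They therefore do not test how the fits treat sections of the same oocyte.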

Additional observations from a re-analysis of the deposited data

Results flagged for a closer look

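In section A of small oocytes, *rbpms2.S* reached 167 CPM in oocyte 5, apart from 116 to 125 CPM in the other 4. It was the only value to stand apart by Dixon's criterion among 30 sets of values of the 5 small oocytes (levels, shares, gradients and homeolog measures), and chance flags about 1 in 20 such sets. The same oocyte had the lowest *rbpms2.S* gradient of its class (-0.14).

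The gradients that differed between size classes, by a test of the difference itself, were those of all 4 members in medium with big against small oocytes, by 2.30 for *dnd1.L*, 0.89 for *rbpms2.L*, 1.63 for *rbpms2.S* and 1.33 for *velo1.L*. Against very small oocytes, which come from the other female, the differences in medium with big oocytes were 2.98 for *dnd1.L*, 0.92 for *rbpms2.L*, 1.96 for *rbpms2.S* and 2.497 for *velo1.L*, and *velo1.L* alone was also called in small against very small oocytes, by 1.17. The homeolog difference of *rbpms2* was higher by 0.77 in medium with big than in small oocytes and by 0.66 in the larger oocytes than in the very small ones.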

How the results depend on the processing

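Over 90 results, 1063 of 1174 alternative values kept their direction and their side of the threshold (for shares, stayed within 1 SD). Of the other 111, 30 reversed, all of results not called either way, and no called value did; the causes were not tested. In the paired analysis with the oocyte as a replicate block, the *dnd1.L* gradient difference of small against very small oocytes was 0.70, now a call (0.69 with no filter, also a call), and the *rbpms2.L* profile over 4 size classes had an adjusted p of 0.101, no longer a call; the block changed no other call. Without the block, sections had an adjusted p of 0.351 for *rbpms2.L* in very small and 0.105 for *rbpms2.S* in small oocytes, both no longer calls. With no filter they had 4.4e-04 for *rbpms2.L* in small and 0.0888 for *rbpms2.S* in very small oocytes, both now calls. The *rbpms2.L* gradient in small oocytes was not called with B and C as reference (0.38), after thinning (0.41) or by DESeq2 (0.37), and with B and C the homeolog difference in female 1 was 0.39, past 0.05. *rbpms2.L* totals were not called with equal section weights (-0.12 in medium with big against small oocytes, 0.14 in small against very small) or with B to E in medium with big against small oocytes (-0.13), whereas with B to E the *velo1.L* total in small against very small oocytes was called (0.34).

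Leaving out 1 oocyte at a time ended or made calls for these, given as ranges. The *dnd1.L* gradient difference of small against very small oocytes ran from 0.61 to 0.77, and its total in medium with big against small oocytes from -0.28 to -0.12. The *rbpms2.L* gradient in small oocytes ran from 0.22 to 0.45, its change in medium with big oocytes from 0.63 to 1.04 against small and from 0.65 to 1.07 against very small oocytes, its totals from -0.19 to -0.13 and from 0.090 to 0.21, and its adjusted p from 0.0173 to 0.482 for the profile over 4 size classes and from 0.00103 to 0.145 within female 1. The adjusted p of sections for *rbpms2.S* ran from 0.0147 to 0.485 in small and from 0.0896 to 0.554 in very small oocytes. The *velo1.L* total in small against very small oocytes ran from 0.15 to 0.31, the homeolog difference in female 1 from 0.32 to 0.47 and its change in the larger against the very small oocytes from 0.59 to 0.74.

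Reversals were these. With equal section weights, totals in medium with big against small oocytes were 0.13 for *dnd1.L*, 0.014 for *rbpms2.S* and 0.18 for *velo1.L*, and in big against medium oocytes 0.088 for *rbpms2.L* and 0.018 for *velo1.L*. With B to E, totals were 0.094 for *rbpms2.L* and 0.14 for *velo1.L* in big against medium oocytes and 2.2e-04 for *dnd1.L* in small against very small ones. The *dnd1.L* total in big against medium oocytes was -4.1e-04 with size factors by the median of ratios and -0.0035 with no filter, and its gradient change there -0.014 with B and C as reference, -0.45 after thinning and -0.0074 by DESeq2. The *rbpms2.L* gradient change in small against very small oocytes was -0.0018 with the replicate block and -0.017 with B and C. Leaving out 1 oocyte, the gradient change in big against medium oocytes ran from -0.13 to 0.15 for *dnd1.L*, that in small against very small ones from -0.12 to 0.17 for *rbpms2.L*, and the *rbpms2.S* gradient in very small oocytes from -0.070 to 0.22. Totals in big against medium oocytes ran from -0.17 to 0.17 for *dnd1.L*, -0.056 to 0.055 for *rbpms2.L*, -0.14 to 0.22 for *rbpms2.S* and -0.23 to 0.22 for *velo1.L*, and the *dnd1.L* total in small against very small oocytes from -0.090 to 0.0015.

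Shares moved most. With unscaled counts the share in E of very small, small, medium and big oocytes was 18.6%, 40.9%, 44.5% and 50.6% for *dnd1.L*, 15.0%, 30.4%, 30.5% and 33.1% for *rbpms2.S*, 27.0%, 57.9%, 43.1% and 48.0% for *velo1.L*, and for *rbpms2.L* 16.7% in very small, 29.6% in small and 25.5% in big oocytes. Of sections B to E alone, E held 29.7% (very small), 40.6% (small) and 65.3% (medium) for *dnd1.L*, 29.5% (very small and small) for *rbpms2.L*, 26.4% (very small), 30.5% (small) and 52.2% (big) for *rbpms2.S* and 41.4% (very small), 56.7% (small) and 63.3% (medium) for *velo1.L*. Depth limits *velo1.S* and, with 2 oocytes a class, any difference between big and medium oocytes.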
